A study of Homo sapiens with 3 samples.

Results

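The negative feedback genes of the ERK pathway and the ETS factors that act at its end were followed in HCT116 cells in which the arginine methyltransferase PRMT1 had been knocked down. The set holds 9 genes: the phosphatases DUSP4, DUSP5 and DUSP6, the Sprouty genes SPRY2 and SPRY4, the SPRED genes SPRED1 and SPRED2, and the ETS factors ETV4 and ETV5. They were taken by name out of 41810 gene names on the array, and every non-control probe carrying 1 of these names was taken. This gave 10 probes, 1 for each of 8 genes and a pair for SPRY4. HCT116 is a human colorectal carcinoma cell line, the same in all 3 groups. The groups were cells with a negative control (NC) and cells with PRMT1 knockdown 1 or 2 (labelled PRMT1-KD1 and PRMT1-KD2, here KD1 and KD2), with 1 RNA sample and 1 Agilent array each, read in 1 colour. The study asked which genes lie downstream of PRMT1, which deposits an asymmetric dimethyl mark on histone H4. With 1 array per group no test between groups was possible, and every difference below is a difference between single arrays with no replicate check. The time between transfection and RNA extraction is not given in the sources used here, and the agent is named in different ways: the labels and the study's methods describe siRNA oligonucleotides delivered with a lipid reagent (Lipofectamine), while the study's results speak of short hairpin RNAs.

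Growth factor receptors switch on RAS, which starts a chain of kinases ending in ERK. Active ERK enters the nucleus and induces, among its targets, genes whose products damp the same chain. DUSP6 and its relatives remove phosphate from ERK itself, DUSP4 and DUSP5 in the nucleus and DUSP6 in the cytoplasm. Sprouty proteins act between the receptor and RAF, and SPRED proteins bring neurofibromin, a RAS inhibitor, to the membrane. ETV4 and ETV5 are PEA3-type ETS transcription factors that carry the signal on to further genes. Transcript levels of this set are widely read as a measure of ERK output, and an array reads the transcript, not the protein or its activity. By western blot the study reports less phosphorylated ERK after PRMT1 knockdown in HCT116 cells, with total ERK unchanged. How the transcripts below relate to that was not tested.

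The oligonucleotides given for the knockdown are shown first, because every comparison against NC rests on them. The labels do not say which of them belongs to KD1 and which to KD2. Neither sequence, written in DNA letters and on either strand, was found within any of the array's probes.
PRMT1 siRNA-1: cugaaguccaggucgauggugaaguc
PRMT1 siRNA-2: uuguagucuuuguacugcc

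Promoter windows are shown for the 4 Sprouty and SPRED genes, because each of these passed 1.5-fold against NC in one knockdown and not in the other. The share of all genes that did so is not given here. Each window is the stretch of 150 bases just upstream of the gene's most upstream start in RefSeq (assembly GRCh38.p14), 5′ to 3′ on the gene's own strand. Capitals mark motifs found by a search of both strands in 250 bases upstream for the ETS core CCGGAA, the longer ETS site CCGGAAGT (which holds the core), AP-1 TGAGTCA, CRE TGACGTCA, SP1 GGGCGG (read as CCGCCC on the other strand) and the CArG box.
SPRY2 (chr13:80341127-80341276, minus strand): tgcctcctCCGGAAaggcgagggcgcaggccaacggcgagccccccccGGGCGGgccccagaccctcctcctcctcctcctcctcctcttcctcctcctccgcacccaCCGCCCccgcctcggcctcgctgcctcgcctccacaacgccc
SPRED1 (chr15:38252686-38252835, plus strand): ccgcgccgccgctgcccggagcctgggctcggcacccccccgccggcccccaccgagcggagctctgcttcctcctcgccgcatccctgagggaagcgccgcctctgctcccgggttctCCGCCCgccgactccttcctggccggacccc
SPRED2 (chr2:65432600-65432749, minus strand): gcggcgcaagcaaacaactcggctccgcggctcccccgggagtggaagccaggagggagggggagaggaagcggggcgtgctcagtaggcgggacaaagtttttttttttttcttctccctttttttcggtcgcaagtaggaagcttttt
SPRY4 (chr5:142324248-142324397, minus strand): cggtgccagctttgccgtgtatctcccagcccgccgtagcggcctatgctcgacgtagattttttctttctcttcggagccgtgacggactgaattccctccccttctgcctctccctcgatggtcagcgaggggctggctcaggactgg

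Of the 5 windows matched, that of SPRY2 alone held an ETS core, 142 to 137 bases upstream, together with an SP1 motif 102 to 97 bases and another 42 to 37 bases upstream. SPRED1 held 1 SP1 motif 31 to 26 bases upstream, and that of SPRY4 lay beyond the stretch shown, 183 to 178 bases upstream. SPRED2 and DUSP6 held none of the 6 motifs. Each gene was searched at its most upstream start only, although 3 starts are listed for SPRY2 and 2 for SPRED2. Of all 35116 windows in the table, 14.5% held the ETS core, 3.42% the longer ETS site, 42.6% SP1, 4.2% AP-1, 1.65% CRE and 1.16% the CArG box. Windows were matched for 5 of the 9 genes; DUSP4, DUSP5, ETV4 and ETV5 were not matched.

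PRMT1 was low in both knockdown arrays, with a difference from NC of -3.28 log2 units in KD1 (10.3% of the NC signal) and -4.55 in KD2 (4.26%). Signals here are the scanner's processed intensities on the log2 scale after subtraction of each array's 75th percentile, and a difference of 1 log2 unit is a doubling. Between 40.7% and 42.3% of probes were well above background on the 3 arrays, and the arrays' 75th percentile intensities were 115 in NC, 153 in KD1 and 123 in KD2. Of 8 markers of colorectal epithelium, 6 were above background on every array, among them EPCAM, CDH1 and CDX2. The others, KRT20 and VIL1, were above background on no array. Markers of other cell types were above background for 1 of 4 leukocyte genes in NC and KD1 and 2 in KD2, 2 of 3 endothelial genes and 1 of 3 fibroblast genes on every array, and their part in the results was not tested. All 10 probes of the 9 genes were well above background on all 3 arrays, and no spot of theirs was marked as an outlier or saturated. The errors given below come from the scanner software's error model for a spot and cover neither culture nor labelling. As a yardstick between arrays, KD1 minus KD2 had a robust SD of 0.38 over 17054 genes that every array detected above background.

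No gene of the set was lower than NC by 1.5-fold in either knockdown, and DUSP5 was the member higher by that fold in both. The share of all genes past the fold in both knockdowns, or in one alone, is not given here. Whether the overlap of the members is unusual was therefore not tested. In KD1, 4 of the 9 were higher by at least 1.5-fold (DUSP5, SPRY2, SPRED1 and SPRED2), where 12.4% of the 19231 genes measured in that comparison were higher and 14.0% lower. In KD2, 2 of the 9 were higher (DUSP5 and SPRY4), where 9.68% of 19421 genes were higher and 10.6% lower. The median difference of the 9 genes was 0.28 log2 units in KD1, beside -0.07 over all genes, and 0.02 in KD2, beside -0.05 over all genes. Both comparisons use the same NC array, so an error on that array moves both in the same direction and they are not independent of each other.

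**Figure D1:**
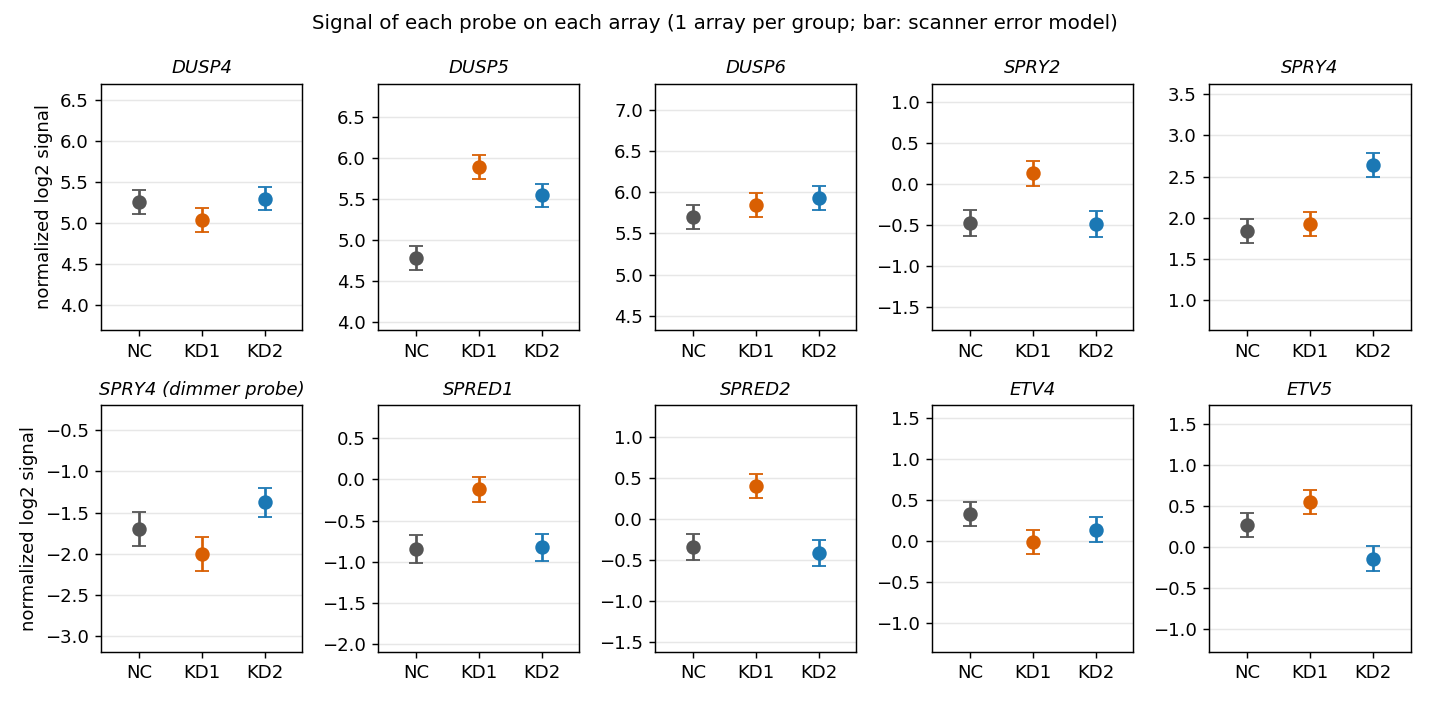
Normalized log2 signal (log2 of the processed intensity minus the array's 75th percentile) of each of the 10 probes on the NC, KD1 and KD2 arrays, 1 array per group, with bars for the scanner's error model. Each panel has its own vertical position and the same span; DUSP5 lies above NC on both knockdown arrays, SPRY2, SPRED1 and SPRED2 on the KD1 array, and SPRY4 on the KD2 array.

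Among the phosphatases, DUSP5 was past 1.5-fold from NC in both knockdowns and DUSP4 and DUSP6 were in neither. DUSP5, an inducible nuclear phosphatase specific for ERK, is read by a probe at hg19 chromosome 10, 112270900 to 112270959 (plus strand). Its processed intensity was 3145 in NC, 9071 in KD1 and 5729 in KD2, and its normalized log2 signal 4.78, 5.89 and 5.54. NC was thus the lowest of the arrays and KD1 the highest. The difference from NC was 1.11 ± 0.20 log2 units in KD1 (2.16-fold) and 0.77 ± 0.20 in KD2 (1.70-fold), while KD1 and KD2 differed by 0.35. Only 3.14% of genes stood higher in KD1 and 5.60% in KD2.

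DUSP6, the cytoplasmic ERK phosphatase, had the highest signal of its own probe in KD2, at 5.93 on the normalized log2 scale, with 5.84 in KD1 and 5.70 in NC (intensities of 5957 in NC, 8778 in KD1 and 7521 in KD2). Its differences of 0.14 ± 0.20 in KD1 and 0.24 ± 0.20 in KD2 were within the yardstick of 0.38, the latter just beyond its error. The probe lies at hg19 chromosome 12, 89742144 to 89742203 (minus strand). DUSP4, a nuclear phosphatase that also acts on other MAP kinases, is read at hg19 chromosome 8, 29194382 to 29194441 (minus strand), with intensities of 4392 in NC, 5020 in KD1 and 4839 in KD2. Its normalized log2 signals were 5.26 in NC, 5.04 in KD1 and 5.30 in KD2. Its differences were -0.22 ± 0.20 and 0.04 ± 0.20, so KD1 was the lowest array, by slightly more than the error. NC and KD2 lay within the error of each other. Probes matched to DUSP4 in GC and brightness had medians of -0.33 in KD1 and -0.27 in KD2. With these subtracted the DUSP4 differences were 0.10 and 0.31, so the sign in KD1 was not kept. The robust SD of KD1 minus KD2 among genes of like brightness was 0.28 for DUSP4 and DUSP5 and 0.24 for DUSP6.

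SPRY2 and SPRY4, which act between receptor and RAF, had opposite patterns across the knockdown arrays. SPRY2, read at hg19 chromosome 13, 80910622 to 80910681 (minus strand), had intensities of 82.5 in NC, 167 in KD1 and 87.2 in KD2. On the normalized log2 scale these were -0.48, 0.13 and -0.50, so KD1 stood alone above a near-equal pair. The difference was 0.60 ± 0.22 in KD1 (1.52-fold), just past the fold used, and -0.02 ± 0.22 in KD2. For SPRY4, KD2 was the high array. Its brighter probe, at hg19 chromosome 5, 141690571 to 141690630 (minus strand), had intensities of 409, 580 and 766 and normalized log2 signals of 1.83 in NC, 1.92 in KD1 and 2.64 in KD2. The difference from NC was 0.09 ± 0.20 in KD1 and 0.81 ± 0.20 in KD2 (1.75-fold), and 4.84% of genes stood higher in KD2.

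The dimmer SPRY4 probe, at 141694487 to 141694546 of the same chromosome and strand and assigned to another transcript, had normalized log2 signals of -1.70 in NC, -2.00 in KD1 and -1.38 in KD2. Its differences from NC were -0.30 ± 0.30 and 0.33 ± 0.28, so against NC it passed the fold in neither knockdown and had the opposite sign to the brighter probe in KD1. Between the knockdowns the probes gave similar values, with KD1 minus KD2 at -0.71 log2 units on the brighter and -0.63 on the dimmer.

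Both SPRED genes, which restrain RAS at the membrane, were higher in KD1 and near the NC level in KD2. SPRED1, read at hg19 chromosome 15, 38645760 to 38645819 (plus strand), had intensities of 64.0 in NC, 141 in KD1 and 69.3 in KD2, and normalized log2 signals of -0.84, -0.12 and -0.83. SPRED2, read at hg19 chromosome 2, 65538851 to 65538910 (minus strand), had intensities of 90.8, 203 and 92.3 and normalized log2 signals of -0.34, 0.41 and -0.41. On both probes KD1 was the high array and NC and KD2 differed by less than the error. The difference in KD1 was 0.72 ± 0.23 for SPRED1 (1.65-fold) and 0.74 ± 0.21 for SPRED2 (1.68-fold), and in KD2 it was 0.02 ± 0.24 and -0.08 ± 0.22.

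SPRY2, SPRED1 and SPRED2 are dim probes, for which like genes had a robust SD of KD1 minus KD2 of 0.44 to 0.46. Base content moved with the KD1 values too. The SPRED1 probe has 35% GC, and probes matched to it in GC and brightness had a median difference of 0.17 in KD1. With such a median subtracted from each gene, the KD1 difference was 0.55 for SPRED1, below the fold of 1.5, 0.84 for SPRED2 and 0.70 for SPRY2. Under normexp background correction the KD1 differences were 0.40 for SPRY2, 0.37 for SPRED1 and 0.53 for SPRED2, all below the fold. The part of brightness and base content in these differences was not tested.

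The ETS factors were not past 1.5-fold from NC in either knockdown. ETV4, at hg19 chromosome 17, 41605966 to 41606025 (minus strand), had intensities of 144 in NC, 152 in KD1 and 135 in KD2. These correspond to normalized log2 signals of 0.33 in NC, -0.01 in KD1 and 0.13 in KD2. Its differences of -0.34 ± 0.21 and -0.19 ± 0.21 placed NC highest, by less than the yardstick of 0.38 in both. Probes matched to ETV4 in GC and brightness had medians of -0.27 in KD1 and -0.13 in KD2. With these subtracted the ETV4 differences were -0.07 and -0.06. ETV5, at hg19 chromosome 3, 185764547 to 185764606 (minus strand), had intensities of 138, 224 and 111, and normalized log2 signals of 0.27 in NC, 0.55 in KD1 and -0.14 in KD2. NC lay between the knockdown arrays, with a difference of 0.28 ± 0.21 in KD1 and -0.42 ± 0.21 in KD2. Probes matched to ETV5 in GC and brightness had medians of 0.26 in KD1 and 0.13 in KD2. With these subtracted the ETV5 differences were 0.02 and -0.54, and KD1 minus KD2 was 0.57, below the fold.

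**Figure D2:**
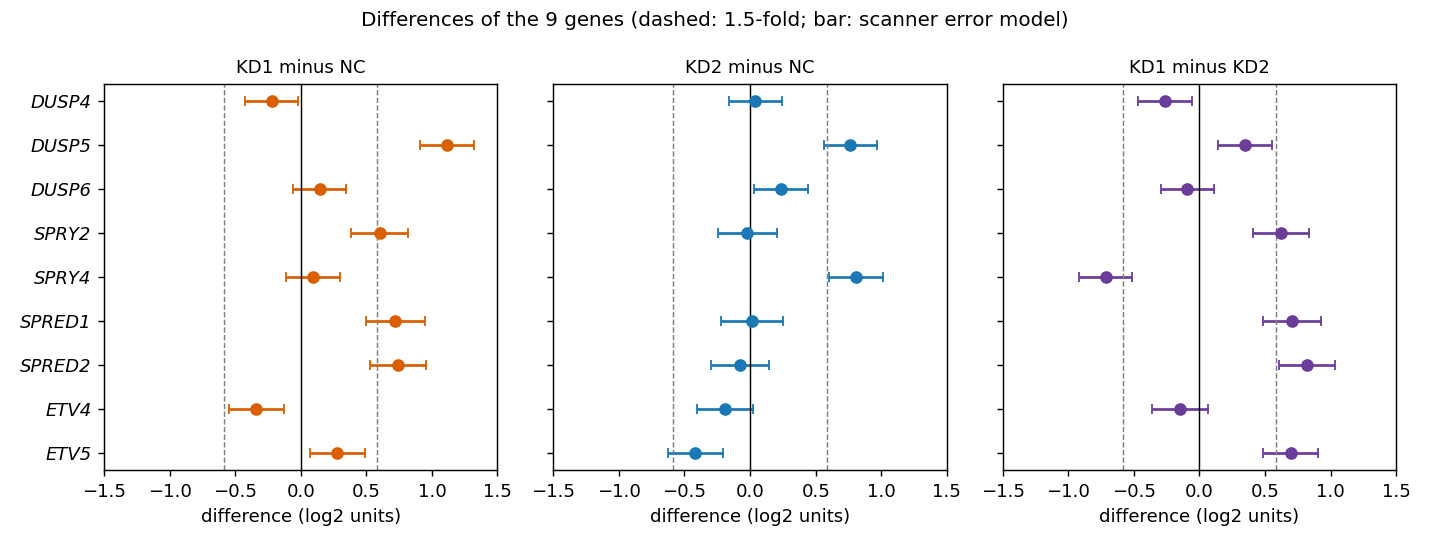
Differences of the 9 genes (brightest probe each) in log2 units for KD1 minus NC, KD2 minus NC and KD1 minus KD2, with bars for the scanner's error model and dashed lines at 1.5-fold. DUSP5 is past the line against NC in both knockdowns, and 5 genes are past it between the knockdowns.

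The comparison of the knockdown arrays with each other does not use the NC array. Of the 9 genes, 4 were at least 1.5-fold higher in KD1 than in KD2 and 1 was lower, where 8.94% of 19544 genes were higher and 9.66% lower. The 4 were SPRED2 (0.82 log2 units, 1.77-fold), SPRED1 (0.71, 1.63-fold), ETV5 (0.69, 1.62-fold) and SPRY2 (0.62, 1.54-fold). The lower gene was SPRY4, with a KD1 to KD2 ratio of 0.609. The robust SD of genes of like brightness was 0.38 for SPRY4 and 0.43 to 0.46 for the other 4. The fold of 1.5 (0.585 log2 units) lies above these SDs, so the 5 genes exceeded them by selection. Members DUSP4, DUSP5, DUSP6 and ETV4 differed between the knockdowns by 0.35 at most. PRMT1 itself was 2.41-fold higher in KD1 than in KD2.

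These calls between the knockdowns depended on the setting. SPRED2 passed 1.5-fold in all 11 alternatives (0.59 to 1.17), SPRED1 in 10, SPRY2 and ETV5 in 9 each and SPRY4 in 8. These tallies include changes of filter or floor, which could not move genes above background on every array. They also include the mean over probes, which could not move single-probe genes. With normexp the differences were 0.32 for SPRY2, 0.33 for SPRED1 and 0.48 for ETV5, below the fold. SPRY4 was at -0.36 with spike-in scaling, where 27.5% of all genes were higher in KD1 and 3.09% lower, and DUSP5 then passed the fold at 0.70.

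The rest of the pathway was described from 6 lists by role, with 69 genes, of which 6 were above background on no array. Of the 63 measured in KD1, 20 were at least 1.5-fold higher than NC and 5 lower, and of 62 in KD2, 17 were higher and 5 lower. As shares these are 31.7% higher and 7.94% lower in KD1, beside 12.4% and 14.0% of all genes, and 27.4% and 8.06% in KD2, beside 9.68% and 10.6%. Their medians were 0.22 in KD1 and 0.24 in KD2. Between the knockdowns 4 of 63 (6.35%) were higher in KD1 and 1 (1.59%) lower, with a median of 0.05, where 8.94% and 9.66% of all genes were. These were EGFR (1.40), PHLDA1 (0.87), MET (0.71), SOS2 (0.71) and, lower, EPHA4 (-0.72), named after their values were seen.

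At the start of the chain, 6 of 14 EGF-type ligands and receptors were higher and 2 lower in KD1, and 2 were higher and 3 lower in KD2. These are 42.9% and 14.3% of the list in KD1, beside 12.4% and 14.0% of all genes, and 14.3% and 21.4% in KD2, beside 9.68% and 10.6%. On its brightest probe the receptor EGFR lay on both sides of NC. Its normalized log2 signals were 1.74 in NC, 2.39 in KD1 and 0.99 in KD2, differences of 0.65 and -0.75. The study lists EGFR as at least 1.5-fold lower on the arrays of both PRMT1 knockdowns. It also reports lower EGFR transcript by RT-PCR and lower EGFR protein by western blot. In KD1 the direction of the EGFR transcript here is the opposite. Values of EGFR on other probes or settings are not given here, and the reason for the disagreement was not tested. EREG and HBEGF, both ligands of EGFR, were higher by 1.47 and 1.30 log2 units in KD1 and by 0.98 and 0.82 in KD2. BTC, a further ligand, and the receptor ERBB3 had differences of -0.84 and -1.12 in KD1 and -0.84 and -1.32 in KD2, past the fold downward, although another detected ERBB3 probe gave -0.22 and 0.15. BTC passed the fold in 8 of 11 alternative settings in KD1, with -0.19 under spike-in scaling, and in 9 in KD2, with -0.28 under normexp. Beside the same all-gene shares, 4 of 18 adaptors, RAS genes and kinases (22.2%) were higher in KD1 and 3 of 17 (17.6%) in KD2. None was lower. Those higher included NRAS (1.01 and 1.02, its other probe 0.42 and 0.59) and MAP2K1, a kinase that phosphorylates ERK (1.35 and 0.84). MAP2K2 of the same list had -0.28 and -0.46.

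Among relatives of the feedback genes, DUSP1, an immediate early phosphatase, was higher by 1.00 in KD1 and 1.10 in KD2, and it was the 1 gene of 7 other MAP kinase phosphatases past the fold in KD1. In KD2 3 of the 7 were higher and 1 lower. As shares these are 14.3% higher in KD1, and 42.9% higher and 14.3% lower in KD2. Of all genes 12.4% were higher and 14.0% lower in KD1, and 9.68% and 10.6% in KD2. SPRY1 had differences of -0.77 and -0.64, opposite in sign to the member SPRY2 in KD1 and SPRY4 in KD2, and it passed the fold in 6 and 5 of 11 alternative settings. IL17RD (SEF), the other inhibitor of its list above background, had 0.85 in KD1 and 0.34 in KD2. Of 8 other ETS factors, 3 were higher and 1 lower in KD1 and 3 were higher in KD2. These are 37.5% and 12.5% in KD1 and 37.5% in KD2, beside the same shares of all genes. ETS1 was higher by 0.70 and 0.65 and ETS2 by 1.17 and 1.03, the latter by 0.53 and 0.46 under normexp background correction, below the fold.

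The other output genes of ERK had medians of 0.51 in KD1 and 0.35 in KD2, beside -0.07 and -0.05 over all genes. Of 14 genes, 5 were higher and 1 lower in KD1, and 6 higher and none lower in KD2. As shares, 35.7% were higher and 7.14% lower in KD1, beside 12.4% and 14.0% of all genes. In KD2 42.9% were higher, beside 9.68% of all genes, where 10.6% were lower. FOS and EGR1, immediate early transcription factors, were higher by 1.29 and 0.66 in KD1 and by 1.51 and 1.02 in KD2. EPHA2 was higher by 0.83 and 0.70. MYC was higher by 0.87 and 0.75 on its brightest probe, but the mean over its probes gave -0.32 and 0.26. Of its 2 probes, only the brightest was above background on every array.

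**Figure D3:**
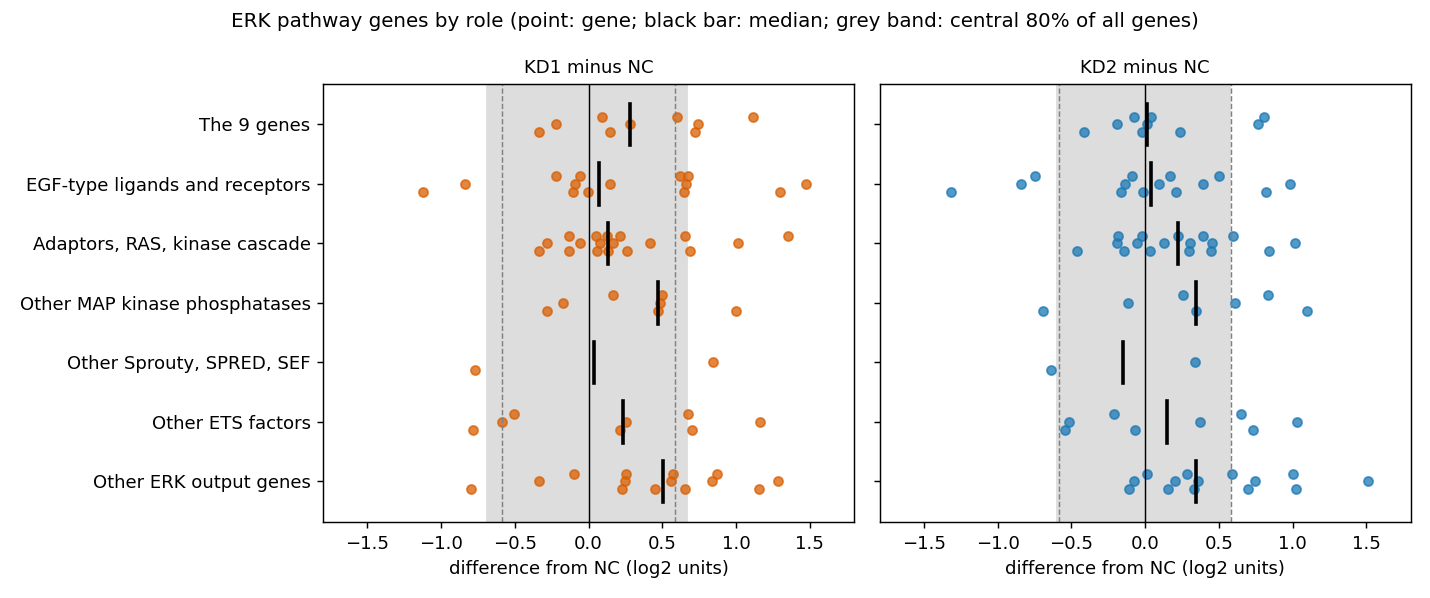
Differences from NC in log2 units for KD1 (left) and KD2 (right) of the 9 genes and of 6 lists of other ERK pathway genes, 1 point per gene measured, with a black bar at each list's median, dashed lines at 1.5-fold and a grey band for the central 80% of all genes. The median of the 9 genes is 0.28 in KD1 and 0.02 in KD2, and that of the other output genes 0.51 and 0.35.

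DUSP5 had the largest mean difference of the set. Among 12568 genes with a RefSeq symbol that every array detected, those whose pair of differences lay nearest to it were SPCS2 (1.11 in KD1 and 0.76 in KD2), YWHAH (1.12 and 0.75) and BDP1 (1.13 and 0.75), at distances of 0.006, 0.016 and 0.020 log2 units. Likeness over 3 arrays is a description of these arrays only.

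The scale set between the arrays moved the KD1 values of all 9 genes together. With arrays scaled on the spike-in probes, the median of all genes in KD1 was 0.57 and 49.1% of genes were higher by 1.5-fold and 1.90% lower, and 7 of the 9 members were then higher. The median of the members minus that of all genes, which a scaling constant cannot move, was 0.35 as reported, 0.28 with normexp, 0.28 with quantile normalization and 0.26 with probes of like GC and brightness subtracted. DUSP5 passed 1.5-fold in all 11 alternative settings in both knockdowns, with a range of 1.00 to 1.76 in KD1 and 0.61 to 1.06 in KD2. SPRED2 passed in 10 in KD1, SPRED1 in 9 and SPRY2 in 8, and SPRY4 in 10 in KD2. The settings that changed the filter or the floor could not move any of the 9 genes, which were above background on every array. The mean over probes could not move a gene with a single probe. In those settings the same call was therefore fixed in advance. The sign of DUSP4 in KD1 was kept in 8 of 11 settings and that of ETV4 in 9, both turning positive under spike-in scaling.

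**Figure D4:**
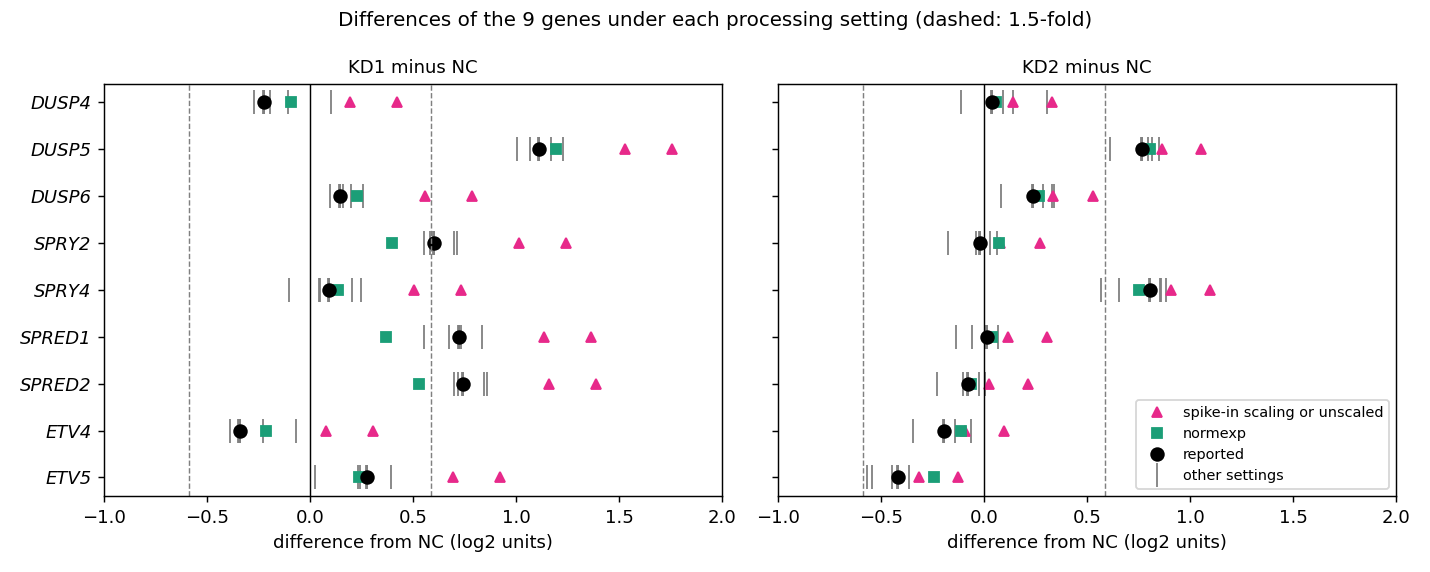
Differences from NC in log2 units of the 9 genes in KD1 (left) and KD2 (right) under the reported setting (black) and 11 alternatives, with dashed lines at 1.5-fold. Spike-in scaling and unscaled values shift all genes in KD1 upward, and normexp moves SPRY2, SPRED1 and SPRED2 below the line in KD1.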

How the data were processed

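HCT116 RNA was hybridised to 1-colour Agilent arrays with 60-base probes, 1 array each for NC, KD1 and KD2. The authors deposited scanner output from Agilent Feature Extraction 10.7.1.1, in which the processed intensity of each spot had been background-corrected and not scaled between arrays; probe positions are in hg19. Per the labels all 3 samples were labelled with Cy3. The deposited series matrix holds the same intensities and served as an alternative.

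Control spots and spots with the software's non-uniformity or population outlier marks were left out, which removed 130 probes. Intensities were taken as log2, each array's 75th percentile over probes usable on all arrays was subtracted, and a gene took its brightest probe. A gene entered a comparison if either array had its probe well above background, and an array without such signal was floored at the dimmest detected level there. The study's methods pair a fold of 1.5 with a p-value that needs replicates, so the fold was used alone. The number of arrays limits the precision. The 9 genes and all lists were chosen with earlier results of these data known. Genes were named from the other lists if past the fold in the same direction in both knockdowns and above background on all arrays. At most 5 a list were named. EGFR, PHLDA1, MET, SOS2, EPHA4, MAP2K2 and IL17RD did not meet this rule and were added after their values were seen. Python 3.11.15, pandas 2.3.3, numpy 2.4.6, matplotlib 3.10.9 and, for normexp (offset 50), limma 3.58.1 in R 4.3.3 were used. The counting was tested on simulated copies of the NC array with planted changes and less noise than between the real arrays. That checks the code and not how reliable the calls are. Alternatives were background correction, scaling, filter, probe choice, GC content and the fold.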

Additional observations from a re-analysis of the deposited data

How the results depend on the processing

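Of the counts of members, 0 were lower than NC by 1.5-fold in KD1 or KD2 under each of the 12 alternatives. Alternatives with a changed filter or floor, or with a fold of 2, could not have added such a gene. Over all genes the share lower ran from 1.90% to 16.4% in KD1 and from 2.48% to 18.1% in KD2 across the 12 alternatives. The count higher in KD1 was 4 as reported, 1 with a fold of 2, 1 with normexp background correction and 7 with spike-in scaling. The shares of all genes higher were 12.4%, 4.19%, 8.64% and 49.1% in that order. The count higher in KD2 was 2 as reported, 0 with a fold of 2 and 1 with the mean over probes, where SPRY4 was at 0.57. Of all genes 9.68%, 2.89% and 9.31% were higher in that order. The median of the members in KD1 was 0.92 with spike-in scaling and 0.69 with the series matrix left unscaled, against 0.28. With median scaling the median in KD2 was -0.14. The same alternatives were applied to KD1 against KD2 after seeing the data. The count higher in KD1 was 4 as reported, 1 with normexp and 0 with a fold of 2, where 8.94%, 5.62% and 2.28% of all genes were higher. The count lower was 1 as reported and 0 with median scaling, spike-in scaling, unscaled series matrix values or a fold of 2. Of all genes 9.66%, 3.92%, 3.09%, 3.46% and 2.59% were lower in that order. The causes were not tested. SPRY2, SPRED1 and SPRED2 in KD1 and SPRY4 in KD2 rest on single arrays. The DUSP5 differences in both knockdowns share the single NC array, on which its signal was lowest. No paired analysis was possible because each group had 1 array.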
